A study of Mus musculus with 20 samples.

Results

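The comparison set 5 libraries of NeuN-negative spinal cord nuclei from mice with experimental autoimmune encephalomyelitis (EAE) against 5 from healthy mice, which are 10 of the 20 libraries of the series. Libraries were put into groups by their titles alone. The comparison, the gene lists and their members were chosen with earlier results of these data known. The EAE nuclei were taken 15 days after active immunization, and the labels give the healthy mice no treatment. NeuN, the product of Rbfox3, marks nuclei of most neurons, and flow cytometry put nuclei without it into the NeuN-negative gate. The labels used here name no strain, sex, age, allele, immunizing antigen or clinical score, and do not say whether the mice were pooled. They also do not say that the libraries come from separate mice, so p-values measure only the spread between these libraries, which may be technical. Polyadenylated RNA of the nuclei was sequenced, and the deposited values are raw counts per gene.

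EAE is a T cell-driven attack on central myelin and a model of multiple sclerosis. In its acute phase monocytes, T cells and other leukocytes cross the vessels of the spinal cord, microglia and astrocytes become reactive, and oligodendrocytes and their myelin are damaged. Nuclei of all these cells fall into the NeuN-negative gate, beside those of endothelial cells, pericytes, fibroblasts of the meninges, ependymal cells and Schwann cells of attached roots. In such bulk libraries, fewer nuclei of a cell type and less RNA of a gene per nucleus cannot be told apart. Values are also relative to each library's total. A smaller share of a cell type's nuclei beside added nuclei of other cells cannot be told apart from these either.

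Library quality differed within and between the groups. Total counts ran from 3149209 to 15525441 in EAE and from 8336330 to 37689267 in healthy libraries. Mitochondrially encoded genes took 4.87, 14.6, 2.18, 9.83 and 7.94% of counts in EAE libraries 1 to 5 and 0.367, 0.572, 4.51, 2.03 and 1.44% in healthy libraries 1 to 5. EAE 2 and EAE 4 held the highest shares and the fewest counts, and healthy 3 overlapped the EAE range. The means were 7.89% ± 4.77 and 1.78% ± 1.67 (SD, n = 5 each; two-sided exact permutation p = 0.0159, or 0.127 when adjusted over 8 library measures). The 10 most abundant genes took 11.6 to 48.2% of counts in EAE and 7.18 to 15.6% in healthy libraries, and Gm10800, a repeat-rich gene model, alone took 1.44 to 20.3% and 0.144 to 2.44%. EAE 2 correlated with the other EAE libraries at a median of 0.691 (log2 CPM over the genes tested), against 0.803 to 0.89 for the rest of its group and 0.9 to 0.968 within the healthy group. Many list counts, though not all, are therefore also given without EAE 2 and EAE 4, an alternative chosen after seeing the data. The Y-linked genes of the list had 4 counts over the 10 libraries in all and Xist was detected throughout, so the groups did not differ in sex by these genes.

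Rbfox3, the gene behind the sort, was checked first. Rbfox3 had 19.9, 25.6, 34.6, 69.9 and 22.4 CPM in EAE libraries 1 to 5 and 13.6, 21.7, 38.9, 33.7 and 35.5 CPM in healthy libraries 1 to 5. The ranges overlapped, with EAE 4 the highest library, and the log2 fold change was 0.26 ± 0.39 (SE; edgeR quasi-likelihood test, adjusted p = 0.633). Of 17 neuron markers edgeR called 0 higher and 0 lower (0 and 1 at an unadjusted p under 0.05, 0 and 1 by DESeq2, 4 and 0 by limma voom), and their median log2 fold change was 0.04. Neuron markers took 0.403% ± 0.172 of counts in EAE and 0.355% ± 0.156 in healthy libraries (SD, n = 5 each; two-sided exact permutation p = 0.683, also after adjustment). Markers of oligodendrocytes (Opalin), astrocytes (Aqp4), microglia (P2ry12) and endothelium (Cldn5) were detected in all 10 libraries.

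Most myelin genes and many genes of astrocyte transport were lower in EAE. Most genes of leukocytes, antigen presentation and the interferon response were higher, while most endothelial genes did not pass the test. Among 17604 genes tested, 2650 were called higher (15.1%) and 2220 lower (12.6%) at an adjusted p under 0.05, and the median log2 fold change of all genes was 0.05. These shares are the background for every count below. In what follows, a value such as -3.54 ± 0.42 after a gene is its log2 fold change of EAE over healthy with the standard error, 5 libraries a group, and a gene said to rise or fall had an adjusted p under 0.05 by edgeR. CPM are counts scaled to the summed counts of the tested genes in each library, with edgeR's TMM normalisation. Without EAE 2 and EAE 4 the counts were 1890 (10.1%) and 1560 (8.34%) of 18715 genes. The higher count was 4011 without healthy 3, and the lower count was 1381 without EAE 4 and 1370 without EAE 5. With the mitochondrial share as a covariate they were 1010 (5.74%) and 444 (2.52%), and since the share itself differed between the groups, the 2 cannot be told apart in that fit. Strand use in counting is not given, so reads of the 47 of 147 genes named here that overlap another gene of the count table, such as Timp1 (Syn1), P2ry12 (Med12l) and Cxcr6 (Fyco1), cannot be split between them.

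**Figure D1:**
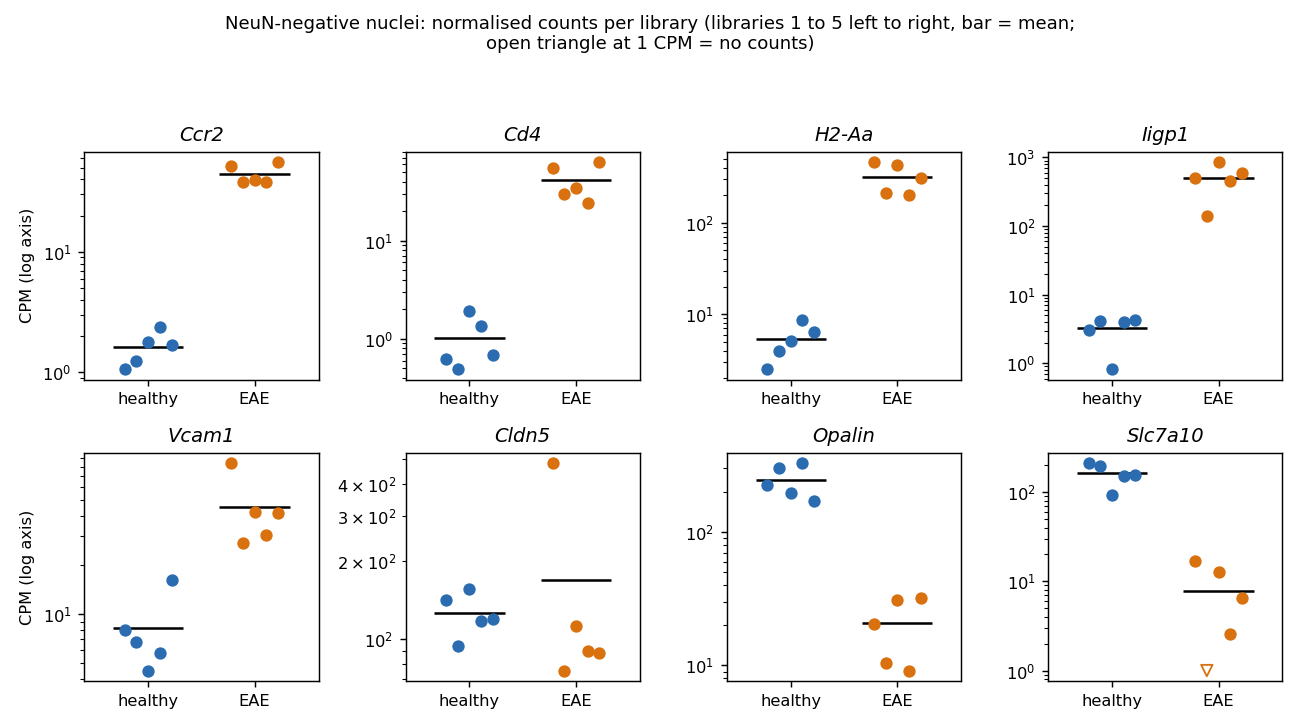
Normalised counts (CPM, log axis) of 8 genes in each NeuN-negative library, with EAE libraries in orange, healthy libraries in blue, a bar at each group mean and an open triangle for a value of 0. The 5 EAE libraries lie above all healthy libraries for Ccr2, Cd4, H2-Aa, Iigp1 and Vcam1, below them for Opalin and Slc7a10, and overlap them for Cldn5.

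Opalin, Ccr2, Cd4 and H2-Aa, markers of oligodendrocytes, monocytes, helper T cells and antigen-presenting cells, are the markers set for this comparison, and none of their groups overlapped. Opalin had 20.6, 10.5, 31.1, 9.15 and 32.3 CPM in EAE libraries 1 to 5 and 225, 303, 195, 327 and 170 CPM in healthy libraries 1 to 5. All EAE libraries were lower than all healthy ones, by 11.6-fold in the fit (log2 fold change -3.54 ± 0.42, adjusted p = 2.44e-05). Opalin (ENSMUSG00000050121, chromosome 19, 41061710 to 41077113, minus strand, GENCODE M21 on GRCm38) encodes a membrane protein of myelinating oligodendrocytes. Ccr2 had 52.1, 37.8, 39.8, 38.4 and 55.7 CPM in EAE libraries 1 to 5 and 1.06, 1.24, 1.78, 2.38 and 1.7 CPM in healthy libraries 1 to 5. The groups did not overlap, and Ccr2 (ENSMUSG00000049103, chromosome 9, 124101950 to 124113557, plus strand), the receptor that monocytes use to follow Ccl2, was 27.9-fold higher (log2 fold change 4.80 ± 0.35, adjusted p = 7.26e-07).

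Cd4 had 54.4, 29.8, 34.5, 23.9 and 63.1 CPM in EAE libraries 1 to 5 and 0.628, 0.49, 1.91, 1.36 and 0.679 CPM in healthy libraries 1 to 5. Cd4 (ENSMUSG00000023274, chromosome 6, 124864692 to 124888221, minus strand), the co-receptor of helper T cells, was 44.2-fold higher with no overlap (log2 fold change 5.46 ± 0.48, adjusted p = 1.61e-06). H2-Aa had 460, 210, 423, 202 and 305 CPM in EAE libraries 1 to 5 and 2.51, 3.92, 5.05, 8.74 and 6.33 CPM in healthy libraries 1 to 5. H2-Aa (ENSMUSG00000036594, chromosome 17, 34282744 to 34287823, minus strand), the alpha chain of the class II molecule I-A, was 60.6-fold higher with no overlap (log2 fold change 5.92 ± 0.47, adjusted p = 1.08e-06). The lowest EAE value of each of these 3 genes was in EAE 2 or EAE 4, and it still lay above the highest healthy value. Without those libraries the log2 fold changes were -3.11 for Opalin, 4.94 for Ccr2, 5.78 for Cd4 and 6.25 for H2-Aa, and all 4 kept their call.

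**Figure D2:**
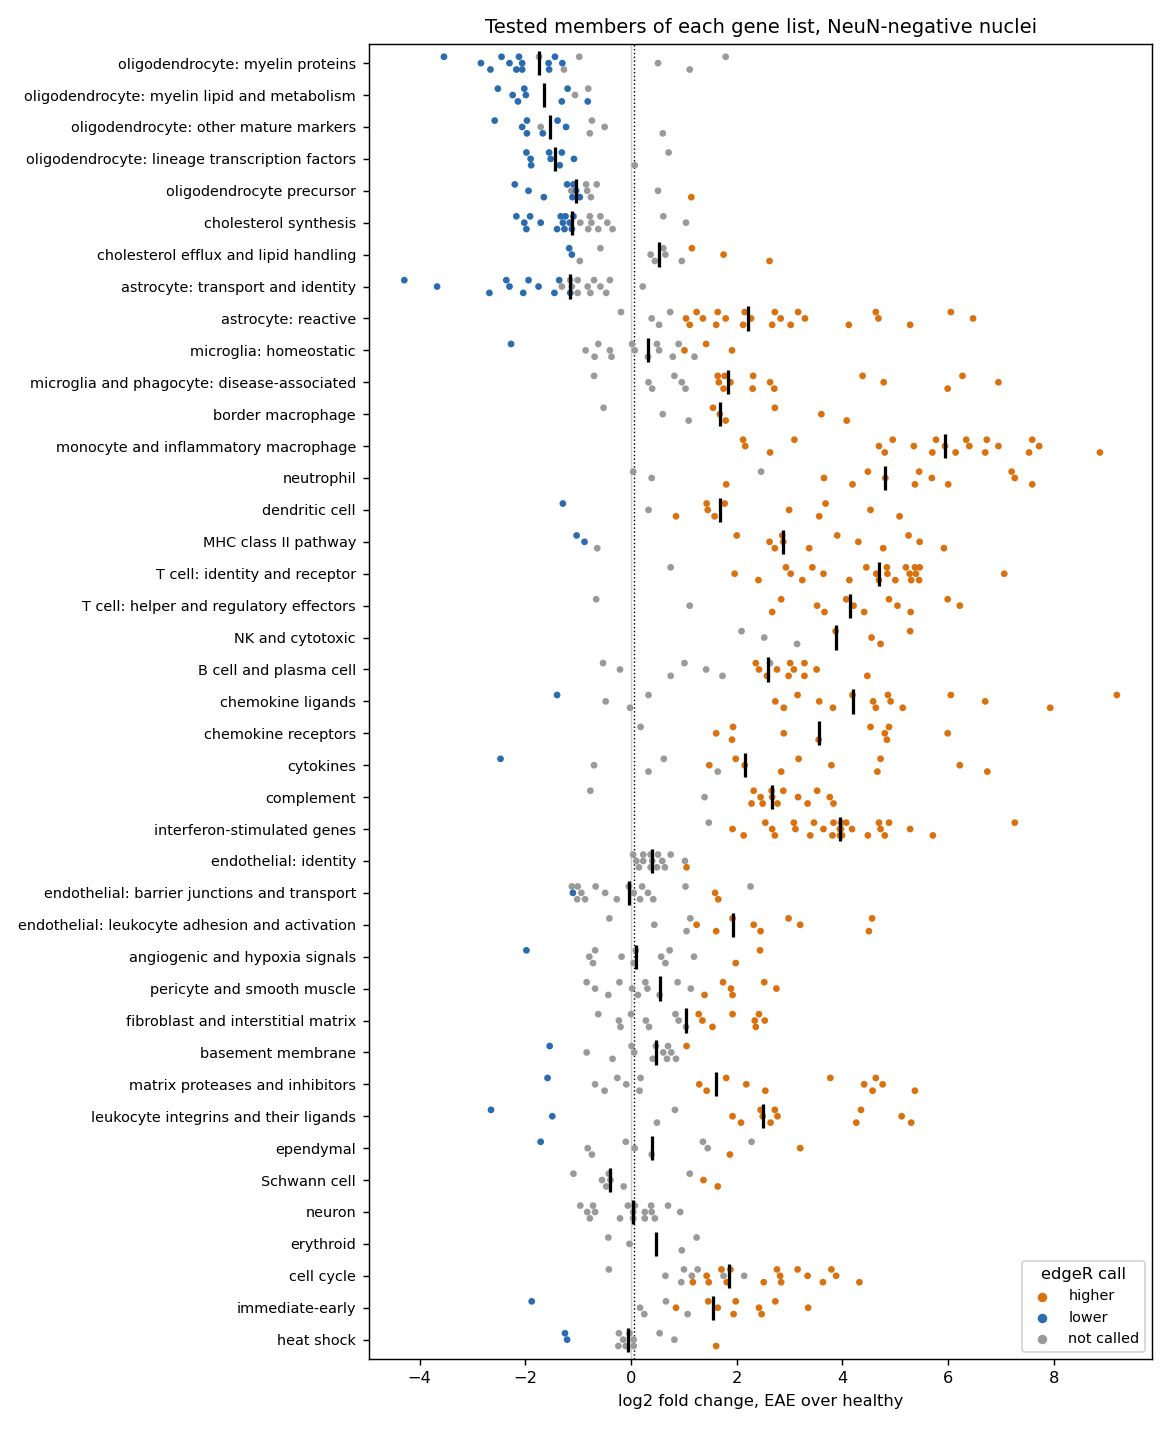
Log2 fold change (EAE over healthy) of every tested member of each gene list, coloured by call, with a black tick at the list's median and a dotted line at the median of all genes tested. Monocyte, T cell, interferon and class II genes lie mostly to the right, oligodendrocyte and cholesterol synthesis genes mostly to the left, and endothelial identity genes mostly to the right of the dotted line by smaller amounts, with 1 of 15 called.

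Most myelin genes were lower in EAE. Of 19 myelin protein genes 13 were called lower and 0 higher, with a median log2 fold change of -1.74, beside 12.6% of all genes called lower. DESeq2 and limma voom each called 15 lower and 2 higher. Without EAE 2 and EAE 4 11 were lower, and with the mitochondrial covariate 6. The summed CPM of the list overlapped between the groups. It ran from 36500 to 147000 in EAE (median 74600) and from 45600 to 81500 in healthy libraries (median 53900). The sum follows its most abundant members and does not show how many genes fell. Mbp and Mobp, described below, alone had 79700 and 62500 CPM in EAE 2 and 39200 and 16400 CPM in healthy 3. Mog had 189, 68, 526, 112 and 275 CPM in EAE libraries 1 to 5 and 1350, 1420, 1320, 1450 and 853 CPM in healthy libraries 1 to 5. Mog, the myelin surface protein that is a common antigen in EAE, fell with no overlap (log2 fold change -2.45 ± 0.53, adjusted p = 0.0032). The falls of Cmtm5 at -2.84 ± 0.49 and of Pllp, or plasmolipin, at -2.17 ± 0.35 also left no overlap between the groups, and Cmtm5 was at -3.51 without EAE 3.

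Some of the most abundant myelin transcripts did not follow. They are named here after their values were seen. Mbp had 21700, 79700, 13100, 50800 and 33500 CPM in EAE libraries 1 to 5 and 9110, 11800, 39200, 18000 and 13900 CPM in healthy libraries 1 to 5. The highest EAE values of Mbp, myelin basic protein, were in EAE 2 and EAE 4, the highest healthy value was in healthy 3, and the fitted change was 1.11 ± 0.73 (adjusted p = 0.262). Mobp had 15600, 62500, 10200, 33200 and 23500 CPM in EAE libraries 1 to 5 and 5780, 6230, 16400, 7860 and 5530 CPM in healthy libraries 1 to 5. Mobp, another small basic myelin protein, had its EAE libraries in the same order, and a fitted change of 1.79 ± 0.70 (adjusted p = 0.065; 0.0292 to 0.0326 without EAE 3 or healthy 3). Mbp and Mobp mRNA is known to be carried from the cell body along oligodendrocyte processes. EAE 2 and EAE 4, with the highest mitochondrial shares, had the highest Mbp and Mobp and the lowest Opalin and Mog (the plot of myelin genes beside the mitochondrial share). Within each group the libraries had the same order by Mbp as by mitochondrial share. By Mobp this held in the EAE group and not in the healthy group. Opalin and Mog did not follow the share throughout. EAE 5, with the next highest share, had the highest Opalin of its group, and Mog in healthy 3 lay within the healthy range. With the mitochondrial share as a covariate Mbp was at -0.58 (adjusted p = 0.784) and Mobp at 0.31 (adjusted p = 0.903). Since the share differed between the groups, its part in these values cannot be told apart from the group's.

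**Figure D3:**
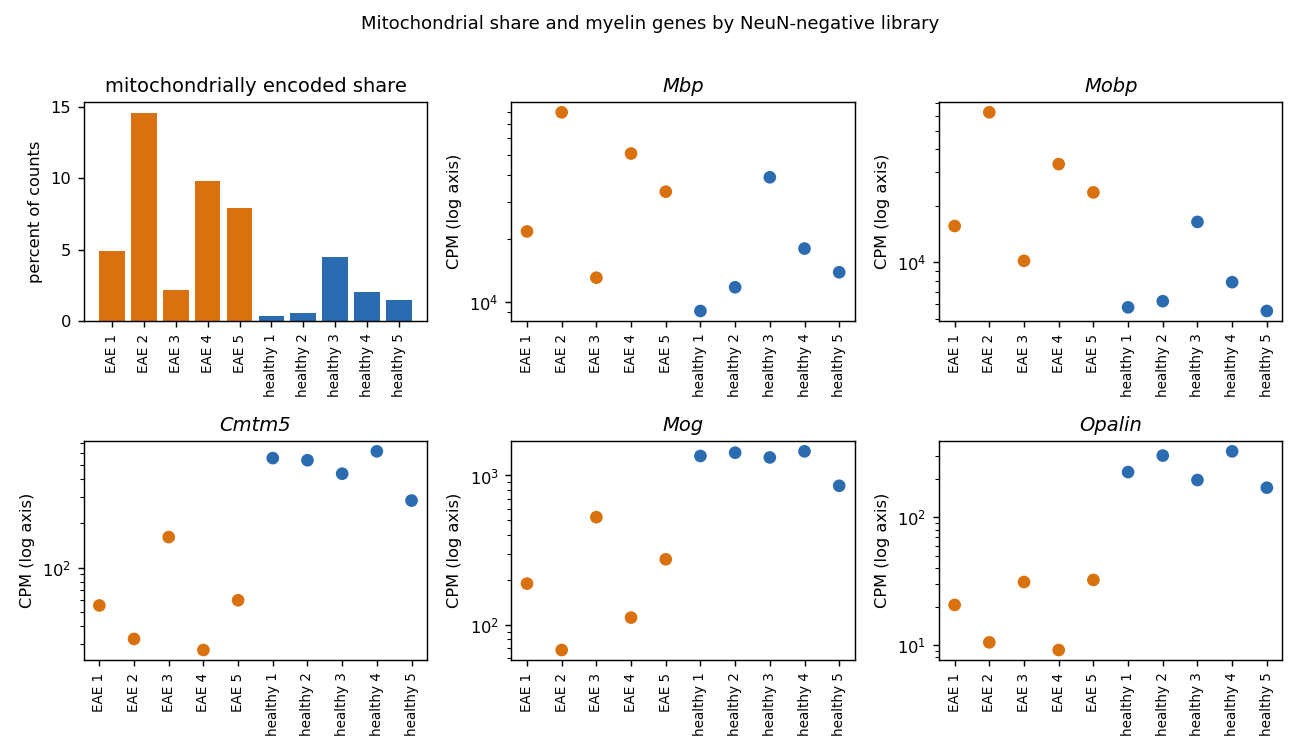
Mitochondrially encoded share of counts (percent) and CPM (log axis) of 5 myelin genes in each NeuN-negative library, EAE 1 to 5 in orange and healthy 1 to 5 in blue. EAE 2 and EAE 4 have the highest mitochondrial share, the highest Mbp and Mobp and the lowest Cmtm5, Mog and Opalin.

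The enzymes of myelin lipids and the transcription factors of the lineage were lower as well. 8 of 10 lipid and metabolism genes were lower and 0 higher (median -1.65). Examples are Fa2h, which hydroxylates the fatty acids of myelin galactolipids (-2.52 ± 0.44), Gal3st1, which makes sulfatide (-2.24 ± 0.39), Aspa, which cleaves N-acetylaspartate (-2.14 ± 0.47), and Elovl7, a fatty acid elongase (-2.02 ± 0.38). This count was 5 when EAE 1, EAE 2, healthy 1 or healthy 2 was left out, 6 without EAE 2 and EAE 4 and 3 with the mitochondrial covariate. 8 of 10 lineage factors were lower, among them Myrf (-1.98 ± 0.47), which drives myelin genes, Sox10 (-1.89 ± 0.47) and Nkx2-2 (-1.90 ± 0.43). The factors' count was 5 without EAE 4, 5 without EAE 2 and EAE 4 and 0 with the covariate. 7 of 12 other mature markers were lower (8 without EAE 2 and EAE 4, 1 with the covariate), including Gjc3 (-2.06 ± 0.46), Josd2 (-2.58 ± 0.54) and Il33, an alarmin stored in oligodendrocyte nuclei (-1.67 ± 0.41). Myrf had 86.3, 97.4, 394, 94.1 and 167 CPM in EAE libraries 1 to 5 and 802, 852, 426, 497 and 737 CPM in healthy libraries 1 to 5. All EAE values of Myrf were below all healthy values, and EAE 3 was the highest of its group, as it was for Mog. Left out, EAE 3 moved Myrf to -2.64, Sox10 to -2.64 and Josd2 to -3.27. The calls of Fa2h (adjusted p = 0.0585), Myrf (0.257), Sox10 (0.182), Nkx2-2 (0.0847), Gjc3 (0.319) and Il33 (0.533) were lost with the covariate.

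The gene of a microRNA of the oligodendrocyte lineage was among the 10 largest falls. Mir219a-2 had 0, 0, 9.17, 1.78 and 0.0963 CPM in EAE libraries 1 to 5 and 32.4, 36, 25.3, 61.2 and 12.8 CPM in healthy libraries 1 to 5. Mir219a-2 fell with no overlap (log2 fold change -3.75 ± 0.94, adjusted p = 0.00867), and EAE 3 was the highest of its group. It was at -6.67 without EAE 3. The call was lost without EAE 2 and EAE 4 (adjusted p = 0.0593) and with the mitochondrial covariate (adjusted p = 0.0562). Its hairpin lies at chromosome 2, 29845631 to 29845727, minus strand, and GENCODE M21 and RefSeq both place Mir219b on the opposite strand within these bases, so reads of either and of a longer primary transcript cannot be told apart here. The count is of the locus in polyadenylated RNA and not of the mature arm. The mature miR-219a-5p (RefSeq, GRCm38.p6, chr2:29845689-29845709, minus strand), known to promote oligodendrocyte maturation, is shown with its seed, bases 2 to 8, in capitals; Mir219a-1 on chromosome 17 makes the same mature sequence.
miR-219a-5p: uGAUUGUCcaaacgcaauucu

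Precursor genes and cholesterol synthesis were lower by smaller amounts. 8 of 15 precursor markers were called lower and 1 higher, with a median of -1.04; 8 became 4 without EAE 4, 6 without EAE 2 and EAE 4 and 2 with the covariate. C1ql1 had 26.1, 13.9, 16.2, 10.4 and 20.9 CPM in EAE libraries 1 to 5 and 58.8, 67.4, 89.3, 79.2 and 43.9 CPM in healthy libraries 1 to 5. C1ql1, a secreted protein of precursors, fell with no overlap (-1.94 ± 0.32, adjusted p = 0.000411), and so did Matn4, a matrix protein (-2.20 ± 0.47). Pdgfra, the growth factor receptor that defines precursors, had -0.85 ± 0.34 (adjusted p = 0.076; 0.0191 without healthy 3). Bmp4, the 1 member called higher (1.14 ± 0.41, adjusted p = 0.0463), was not called when any of 7 libraries was left out (adjusted p 0.0539 to 0.183 without EAE 1, EAE 2, EAE 5, healthy 1, healthy 2, healthy 4 or healthy 5), without EAE 2 and EAE 4 (adjusted p = 0.0689) or with the covariate (adjusted p = 0.385). Cholesterol, which myelin needs in bulk, is made by the next group, of which 13 of 23 were lower and 0 higher (median -1.12; 11 lower without EAE 2 and EAE 4 and 1 with the covariate). Dhcr7, the last reductase of the pathway, fell (-1.91 ± 0.29, adjusted p = 0.000236), and so did Srebf2, its master regulator (-1.71 ± 0.38; adjusted p = 0.141 with the covariate). The early enzyme Hmgcs1 (-0.75 ± 0.35, adjusted p = 0.113) did not pass the test. Of 12 genes of lipid export and storage 3 were higher and 2 lower (6 and 1 without EAE 2 and EAE 4, 2 and 0 with the covariate), with Plin2, the coat protein of lipid droplets, at 2.62 ± 0.33.

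Astrocyte genes split into a group of transporters and receptors that fell and a reactive group that rose. 11 of 23 transport and identity genes were called lower and 0 higher (median -1.15; 8 lower without EAE 2 and EAE 4, 6 with the mitochondrial covariate). Slc7a10 had 16.9, 0, 12.8, 2.54 and 6.55 CPM in EAE libraries 1 to 5 and 209, 198, 93.6, 152 and 154 CPM in healthy libraries 1 to 5. Slc7a10, the carrier of small neutral amino acids and D-serine in astrocytes, had the largest fall of all genes under the naming rule, at -4.29 ± 0.64 (19.6-fold lower, adjusted p = 0.00017). The value of EAE 2 was 0, and no EAE library came near the healthy range. Ntsr2 had 98.2, 17.6, 39.3, 5.08 and 27.8 CPM in EAE libraries 1 to 5 and 630, 465, 527, 549 and 239 CPM in healthy libraries 1 to 5. Ntsr2, a neurotensin receptor of astrocytes, was at -3.67 ± 0.61 (adjusted p = 0.000495), with EAE 1 the highest of its group and still below all healthy libraries; it was at -4.45 without EAE 1, and Slc7a10 was at -3.18 with the covariate.

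Fgfr3, a growth factor receptor of mature astrocytes, was at -2.68 ± 0.39 (adjusted p = 0.000154) and Slc25a18, a mitochondrial glutamate carrier, at -1.75 ± 0.31 (adjusted p = 0.000688). Both also left no overlap. In contrast, the water channel gene Aqp4 (-0.77 ± 0.47, adjusted p = 0.224) and the glutamate transporter gene Slc1a2 (-1.12 ± 0.44, adjusted p = 0.0676; 0.0266 to 0.0387 without EAE 1 or healthy 3) did not pass the test. Aqp4 had 161, 133, 65.8, 54.4 and 108 CPM in EAE libraries 1 to 5 and 202, 174, 43, 113 and 359 CPM in healthy libraries 1 to 5. The Aqp4 ranges overlapped, with healthy 3 the lowest library of all.

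In the reactive group 22 of 26 genes were higher and 0 lower (median 2.21; 21 higher without EAE 2 and EAE 4, 17 with the covariate). Serpina3n had 382, 428, 489, 347 and 264 CPM in EAE libraries 1 to 5 and 13.4, 17.4, 20.8, 31.1 and 27.3 CPM in healthy libraries 1 to 5. Serpina3n, a secreted protease inhibitor, was 17.4-fold higher with no overlap (log2 fold change 4.12 ± 0.38, adjusted p = 2.16e-06). Timp1, an inhibitor of matrix metalloproteinases (4.63 ± 0.42), and Vim, an intermediate filament gene (2.83 ± 0.38), rose as well. Gfap had 1680, 843, 948, 680 and 792 CPM in EAE libraries 1 to 5 and 1470, 1060, 1000, 1110 and 1010 CPM in healthy libraries 1 to 5. Gfap, the intermediate filament most used to mark reactive astrocytes, had a fitted change of -0.19 ± 0.41 (adjusted p = 0.752), with EAE 1 the highest library and the other 4 EAE libraries below all healthy ones. Several members of this list, such as Vim, Cd44, Cxcl10 and Gbp2, are also expressed by leukocytes or vessels, and which cells gave their rise was not tested.

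Microglial identity genes mostly did not pass the test, while phagocyte genes of the disease-associated state rose. Of 17 homeostatic genes 3 were higher and 1 lower (median 0.32); the higher count was 6 without EAE 2, 7 without EAE 2 and EAE 4 and 1 with the covariate, and the lower count was 2 without healthy 3. P2ry12 had 14.8, 13.9, 18.2, 12.5 and 36.8 CPM in EAE libraries 1 to 5 and 25.6, 29.9, 9.29, 19.3 and 40.9 CPM in healthy libraries 1 to 5. P2ry12, the purine receptor of resting microglia, overlapped between groups (-0.37 ± 0.40, adjusted p = 0.507), as did Tmem119 (0.53 ± 0.33, adjusted p = 0.238). Fcrls had 13.3, 7.14, 3.85, 1.53 and 8.38 CPM in EAE libraries 1 to 5 and 33.3, 38.5, 38.4, 37.4 and 20.4 CPM in healthy libraries 1 to 5. Fcrls, an Fc receptor-like gene of resident microglia, was the 1 member called lower, with no overlap (-2.27 ± 0.45, adjusted p = 0.00174). Cx3cr1, the fractalkine receptor gene of microglia and of monocytes, rose (1.91 ± 0.44, adjusted p = 0.00539), although EAE 3, at 111 CPM, lay below healthy 3, at 142 CPM. With the covariate it was at 1.05 (adjusted p = 0.335).

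Of 20 disease-associated genes 14 were higher and 0 lower (median 1.83; 17 higher without EAE 2 and EAE 4). Gpnmb had 202, 153, 180, 48.1 and 81.4 CPM in EAE libraries 1 to 5 and 1.21, 2.11, 0.41, 3.86 and 2.74 CPM in healthy libraries 1 to 5. Gpnmb, a glycoprotein of lipid-laden phagocytes, was 63.5-fold higher with no overlap (log2 fold change 5.99 ± 0.56, adjusted p = 2.61e-06). Clec7a, a receptor for beta-glucans, was at 6.27 ± 0.57, Lgals3, or galectin-3, at 4.38 ± 0.41 and Itgax, or CD11c, at 4.78 ± 0.51. Apoe, the lipid carrier that heads this list, had 0.96 ± 0.42 (adjusted p = 0.0989) and Spp1, or osteopontin, rose by 2.71 ± 0.42. Monocyte-derived cells express most of these genes too. Border macrophage genes rose for 6 of 9 (3 without EAE 2 and EAE 4 and 3 without healthy 2 or healthy 4, 3 with the covariate), led by F13a1 (4.08 ± 0.41) and Ms4a7 (3.60 ± 0.65). The first 2 members of that list rose less, by 1.55 ± 0.50 and 1.68 ± 0.52. The 3 not called were at -0.52 ± 0.61, 0.60 ± 0.85 and 1.09 ± 0.91. Which cells gave the rises was not tested.

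All 21 of the 21 tested monocyte and inflammatory macrophage genes rose (median 5.94), without EAE 2 and EAE 4 (21) and with the mitochondrial covariate (21) as well. All 5 EAE libraries lay above all healthy ones for each of them, which held for 8.94% of all genes tested. Lyz2 had 1480, 851, 1340, 447 and 677 CPM in EAE libraries 1 to 5 and 8.6, 11.3, 14.8, 38.7 and 19.3 CPM in healthy libraries 1 to 5. Lyz2, a lysozyme of myeloid cells, was 51.9-fold higher (log2 fold change 5.70 ± 0.57, adjusted p = 5.29e-06), and healthy 4 was the highest healthy library for it. Chil3 had 549, 255, 404, 139 and 129 CPM in EAE libraries 1 to 5 and 0.338, 0.0753, 0, 7.83 and 0.271 CPM in healthy libraries 1 to 5. Chil3, a chitinase-like protein of alternatively activated macrophages, was 193-fold higher (log2 fold change 7.59 ± 1.16, adjusted p = 0.000235), again with healthy 4 the highest of its group. Without healthy 4, which held most of the healthy counts of these genes, the log2 fold change was 10.39 for Chil3, 12.04 for Saa3, 9.56 for Ly6i and 6.56 for Ly6c2; Saa3 was at 8.28 without healthy 2 and 8.27 without healthy 5. Hp, or haptoglobin (7.53 ± 0.63), Ly6i (7.72 ± 0.87) and Saa3, an acute phase protein (8.87 ± 1.04), were among the other large rises. Ly6c2, the surface marker of inflammatory monocytes, rose by 5.35 ± 0.87. The Ly6 genes are close copies of each other, and how reads were split among them is not given in the sources used here.

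Neutrophil genes rose for 12 of 15 tested members (median 4.81; 13 without EAE 2 and EAE 4). S100a8 had 73.3, 38.2, 85.6, 36.4 and 8.38 CPM in EAE libraries 1 to 5 and 0.676, 0.829, 0.956, 1.13 and 1.11 CPM in healthy libraries 1 to 5. S100a8, a calcium-binding protein that fills the neutrophil cytosol, was lowest in EAE 5 and rose with no overlap (5.69 ± 0.56, adjusted p = 3.9e-06). Mcemp1, a membrane protein of granulocytes and mast cells, had 7.59 ± 0.47 and the smallest adjusted p among the 10 largest rises, at 2.23e-07. Of 12 dendritic cell genes 10 were higher and 1 lower (median 1.68; 4 and 1 with the mitochondrial covariate). Ccr7, which guides mature dendritic cells, rose by 4.53 ± 0.72 (5.52 without healthy 3, 3.35 with the covariate), and Clec10a by 2.99 ± 0.63 (4.15 with it). Fscn1, or fascin, listed as a gene of mature dendritic cells but also expressed in the nervous system, fell (-1.29 ± 0.28, adjusted p = 0.00337).

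Antigen presentation by class II was led by the I-A and I-E chains. Of 15 class II pathway genes 12 were higher and 2 lower (median 2.88; 12 and 0 without EAE 2 and EAE 4). H2-Ab1, the I-A beta chain, was at 5.46 ± 0.52, H2-Eb1, the I-E beta chain, at 4.77 ± 0.55 and Cd74, the invariant chain, at 5.25 ± 0.61. Cd74 had 1740, 457, 1590, 706 and 622 CPM in EAE libraries 1 to 5 and 13.2, 15.6, 34, 56.3 and 15.8 CPM in healthy libraries 1 to 5. The groups did not overlap, and the summed CPM of the list ran from 1390 to 4010 in EAE against 175 to 270 in healthy libraries. Rfxank (-1.03 ± 0.31, adjusted p = 0.022; 0.0502 to 0.067 without EAE 4 or EAE 5) and Rfxap (-0.88 ± 0.29, adjusted p = 0.0314; 0.0592 to 0.0788 without EAE 2, EAE 4, EAE 5, healthy 1, healthy 2 or healthy 4), subunits of a constitutive factor that binds class II promoters, were called lower, but not without EAE 2 and EAE 4 (adjusted p = 0.0786 and 0.105) nor with the covariate (0.24 and 0.577).

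Class II promoters carry a conserved Y box, an inverted CCAAT element bound by NF-Y. The letters CTGATTGG were searched on both strands in the 250 bases before the start site (RefSeq, GRCm38.p6). They occurred in 4 of the 12 class II pathway genes with an entry (H2-Aa, H2-Eb1, H2-Eb2 and H2-Oa) and in 4.43% of 27025 genes with an entry. The 120 bases before the start of 3 of these genes are shown, with the match in capitals, because H2-Aa marks antigen-presenting cells and the other genes hold the same letters. H2-Oa, a chain of the H2-O modulator, was chosen for its letters (2.86 ± 0.83, adjusted p = 0.0192; 0.0525 to 0.0699 without EAE 3 or healthy 1, and 0.0573 with the mitochondrial covariate); its log2 fold change was 2.18 without EAE 3 and 4.07 without healthy 3. They lie at chr17:34287824-34287943 (H2-Aa, minus strand), chr17:34305747-34305866 (H2-Eb1, plus strand) and chr17:34092259-34092378 (H2-Oa, plus strand).
H2-Aa: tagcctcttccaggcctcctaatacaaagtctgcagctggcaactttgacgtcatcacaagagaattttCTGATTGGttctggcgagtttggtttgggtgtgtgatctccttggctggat
H2-Eb1: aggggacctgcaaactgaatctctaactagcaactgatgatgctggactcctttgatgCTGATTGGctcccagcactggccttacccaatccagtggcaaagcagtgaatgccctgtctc
H2-Oa: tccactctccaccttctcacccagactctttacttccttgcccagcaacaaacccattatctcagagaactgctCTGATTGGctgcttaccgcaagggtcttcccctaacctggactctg
The match began 51 bases before the start in H2-Aa, 62 in H2-Eb1 and 46 in H2-Oa. A match is a description of the letters and does not show binding.

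T cell genes were low in healthy libraries, and nearly all of them rose. Of 23 identity and receptor genes 22 were higher and 0 lower (median 4.69; 22 without EAE 2 and EAE 4, 19 with the mitochondrial covariate). Cd3e had 20.4, 23.5, 16.2, 22.6 and 7.23 CPM in EAE libraries 1 to 5 and 0.773, 0.301, 1.09, 0.34 and 0.385 CPM in healthy libraries 1 to 5. Cd3e, a signalling chain of the T cell receptor, rose with no overlap (5.0 ± 0.54, adjusted p = 9.91e-06), and Cd5, a scavenger receptor-like protein of T cells, rose by 7.06 ± 0.73. The summed CPM of the list was 340 to 568 in EAE and 21.5 to 51.4 in healthy libraries. Among helper and regulatory genes 12 of 14 rose and 0 fell. Ifng had 7.02, 4.62, 8.94, 2.03 and 3.66 CPM in EAE libraries 1 to 5 and 0.0483, 0, 0.137, 0.227 and 0.0226 CPM in healthy libraries 1 to 5. Ifng, the cytokine of type 1 helper cells, was the lowest in EAE 4 and still above all healthy libraries (6.22 ± 1.03, adjusted p = 0.00044; 6.81 without healthy 4). Icos, a co-stimulatory receptor (5.04 ± 0.56), Il2ra, or CD25 (4.41 ± 0.65), and Cxcr6, a homing receptor (5.99 ± 0.77), rose too. Il17a, the cytokine of Th17 cells, was under the count filter and was not tested. Its CPM were 0, 2.52, 0, 0 and 1.06 in EAE libraries 1 to 5, and it had 0 counts in the healthy group. Against a floor of 3 counts over the healthy group its summed counts per total were at least 12.8-fold higher, a bound for counting error only that rests on EAE 2 and EAE 5.

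Of 7 NK and cytotoxic genes 4 rose (median 3.87; 7 without healthy 3, 4 without EAE 2 and EAE 4, and 2 with the covariate), among them Nkg7 (5.28 ± 1.05; 6.79 without healthy 3) and Klrk1 (4.55 ± 0.88). Ncr1, the defining NK receptor, was under the count filter. B and plasma cell genes rose for 11 of 18 (median 2.60, and 11 without EAE 2 and EAE 4). The 7 not called included plasma cell members, at -0.53 ± 0.61, -0.21 ± 0.75, 1.73 ± 0.98 and 2.63 ± 1.08. Another plasma cell member rose by 3.28 ± 0.55. Cd22 had 26.7, 28.5, 49.4, 21.4 and 36.6 CPM in EAE libraries 1 to 5 and 1.88, 1.32, 1.23, 1.93 and 1.04 CPM in healthy libraries 1 to 5. Cd22, an inhibitory receptor of B cells that microglia and macrophages can also express, did not overlap (4.47 ± 0.38, adjusted p = 1.49e-06), and Pax5, a B cell transcription factor, rose by 2.76 ± 0.52. Fcrl5, a receptor of B cells, was among the 10 largest rises at 7.81 ± 1.16. Its CPM in EAE libraries 1 to 5 were 1.26, 33.6, 1.89, 14.7 and 4.72, highest in EAE 2 and EAE 4. It was at 6.81 without EAE 2, 5.78 without both and 4.26 with the mitochondrial covariate (adjusted p = 0.00221 and 0.0431 for the last 2 fits).

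Chemokines rose as ligands and as receptors. Of 19 ligands 15 were higher and 1 lower (median 4.19; 17 and 0 without EAE 2 and EAE 4). Cxcl13 had 4.36, 17.6, 15.8, 6.36 and 4.05 CPM in EAE libraries 1 to 5 and 0, 0, 0, 0 and 0.0226 CPM in healthy libraries 1 to 5. Cxcl13, which draws B cells, had 435 counts in the EAE libraries and 1 count in the healthy ones. The ratio of these counts per total was 980, with a 95% interval of 175 to 38800 (Clopper-Pearson) that covers counting error only (adjusted p = 8.54e-06). Cxcl9, an interferon gamma-induced ligand for T cells, was at 7.93 ± 0.80 (8.55 without healthy 4 and 7.31 without healthy 5), Ccl5, which attracts T cells and monocytes, at 6.70 ± 0.61 and Ccl2, the ligand of Ccr2, at 4.91 ± 0.70. Ccl6 had 90.3, 121, 88.7, 63.8 and 98.8 CPM in EAE libraries 1 to 5 and 3.62, 2.94, 4.23, 4.77 and 3.3 CPM in healthy libraries 1 to 5. Ccl6, a monocyte attractant, had EAE values within a narrow range, far above the healthy ones (4.63 ± 0.31, adjusted p = 3.62e-07). Cxcl14 was the 1 ligand called lower (-1.40 ± 0.41, adjusted p = 0.0191, and 0.0621 without EAE 4), with an adjusted p of 0.0743 without EAE 2 and EAE 4 and 0.419 with the covariate. Receptors rose for 10 of 11, with Ccr1 at 4.84 ± 0.63 and Cxcr4 at 3.55 ± 0.55.

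Cytokines rose for 10 of 15 and fell for 1 (median 2.15; 10 and 1 without EAE 2 and EAE 4). Il1b had 23.6, 14.7, 63.6, 35.6 and 29.8 CPM in EAE libraries 1 to 5 and 0.0966, 0.0753, 1.23, 0.34 and 0.249 CPM in healthy libraries 1 to 5. Il1b, made by activated myeloid cells, did not overlap (6.74 ± 0.69, adjusted p = 6.12e-06; 7.46 without healthy 3), and Tnf (4.72 ± 0.69; 5.53 without healthy 4) and Osm, or oncostatin M (3.79 ± 0.43), rose with it. Il18 had 35.9, 6.3, 67.3, 5.34 and 20.3 CPM in EAE libraries 1 to 5 and 214, 194, 86.9, 180 and 89 CPM in healthy libraries 1 to 5. Il18, another cytokine of the same family, went the other way with no overlap (-2.47 ± 0.58, adjusted p = 0.00535, and 0.154 with the mitochondrial covariate). The 2 lowest Il18 values were in EAE 2 and EAE 4, and without these libraries it was at -1.84 (adjusted p = 0.0111), and it was at -3.18 without EAE 3. Complement genes rose for 13 of 15 (14 without EAE 2 and EAE 4), with C3, the central component, at 3.16 ± 0.38, C1qa, a chain of the first component, at 2.88 ± 0.34 and the receptor gene C3ar1 at 3.34 ± 0.36.

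Interferon-stimulated genes rose for 27 of 28 members (median 3.95), 28 without EAE 2 and EAE 4 and 28 with the mitochondrial covariate. Iigp1 had 503, 139, 853, 452 and 588 CPM in EAE libraries 1 to 5 and 3.04, 4.14, 0.82, 3.97 and 4.27 CPM in healthy libraries 1 to 5. Iigp1, a GTPase that attacks the vacuoles of intracellular pathogens, was 153-fold higher with no overlap (log2 fold change 7.26 ± 0.61, adjusted p = 1.48e-06). Gbp2, a guanylate-binding protein, was at 5.28 ± 0.46, Irgm1, a regulator of that GTPase family, at 4.69 ± 0.42 and Ifit1, an RNA-binding antiviral protein, at 3.46 ± 0.30. EAE 3 was the highest library for Iigp1, Gbp2 and Irgm1. The member not called was Stat2 (1.47 ± 0.55, adjusted p = 0.0558; 0.00913 without EAE 2), a subunit of the factor that mediates type I interferon signals, named after its value was seen.

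Promoters of these genes often hold an interferon-stimulated response element. Its core TTTCNNTTTC, in which N is any base, was searched on both strands in the 250 bases before the start site. It occurred in 12 of the 23 listed genes with a promoter entry and in 3.46% of 27025 genes. The 120 bases before the start of 3 members that rose are shown with each match in capitals, at chr19:34640769-34640888 (Ifit1, plus strand), chr3:142620543-142620662 (Gbp2, plus strand) and chr11:48871421-48871540 (Irgm1, minus strand; RefSeq, GRCm38.p6).
Ifit1: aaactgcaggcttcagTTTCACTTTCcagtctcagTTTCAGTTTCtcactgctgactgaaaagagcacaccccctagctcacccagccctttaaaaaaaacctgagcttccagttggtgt
Gbp2: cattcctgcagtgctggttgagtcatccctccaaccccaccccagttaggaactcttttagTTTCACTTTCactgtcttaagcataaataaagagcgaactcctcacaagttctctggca
Irgm1: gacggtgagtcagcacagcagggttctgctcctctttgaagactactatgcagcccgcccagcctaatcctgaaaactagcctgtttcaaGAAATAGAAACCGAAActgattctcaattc
Ifit1 held 2 matches, Gbp2 1 match and Irgm1 2 overlapping matches, on the opposite strand. Iigp1 is not among the 12, and no match says only that these letters are not in the window.

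The vascular gene lists differed in how many members were called. Endothelial identity genes mostly did not pass the test, with 1 of 15 called higher, 0 lower and a median log2 fold change of 0.40. Pecam1 had 106, 40.7, 42.3, 52.6 and 49.5 CPM in EAE libraries 1 to 5 and 35.8, 19.9, 27.5, 17.2 and 40.2 CPM in healthy libraries 1 to 5. Pecam1, the adhesion molecule of endothelial junctions, was the 1 called, with EAE 2 just above healthy 5 (1.05 ± 0.34, adjusted p = 0.0319); platelets and leukocytes express it as well. It missed the threshold when any of 7 libraries was left out (adjusted p 0.0614 to 0.141 without EAE 1, EAE 4, EAE 5, healthy 1, healthy 2, healthy 3 or healthy 4) and with the mitochondrial covariate (adjusted p = 0.151). Cdh5, the endothelial cadherin, had 0.40 ± 0.37 (adjusted p = 0.426). The summed CPM of the list was 385 to 1050 in EAE and 318 to 603 in healthy libraries, so the ranges overlapped. EAE 1 was the highest of all 10 libraries for Pecam1, Cldn5, Vcam1 and Tagln, and the calls of Vcam1 and Tagln held without it.

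**Figure D4:**
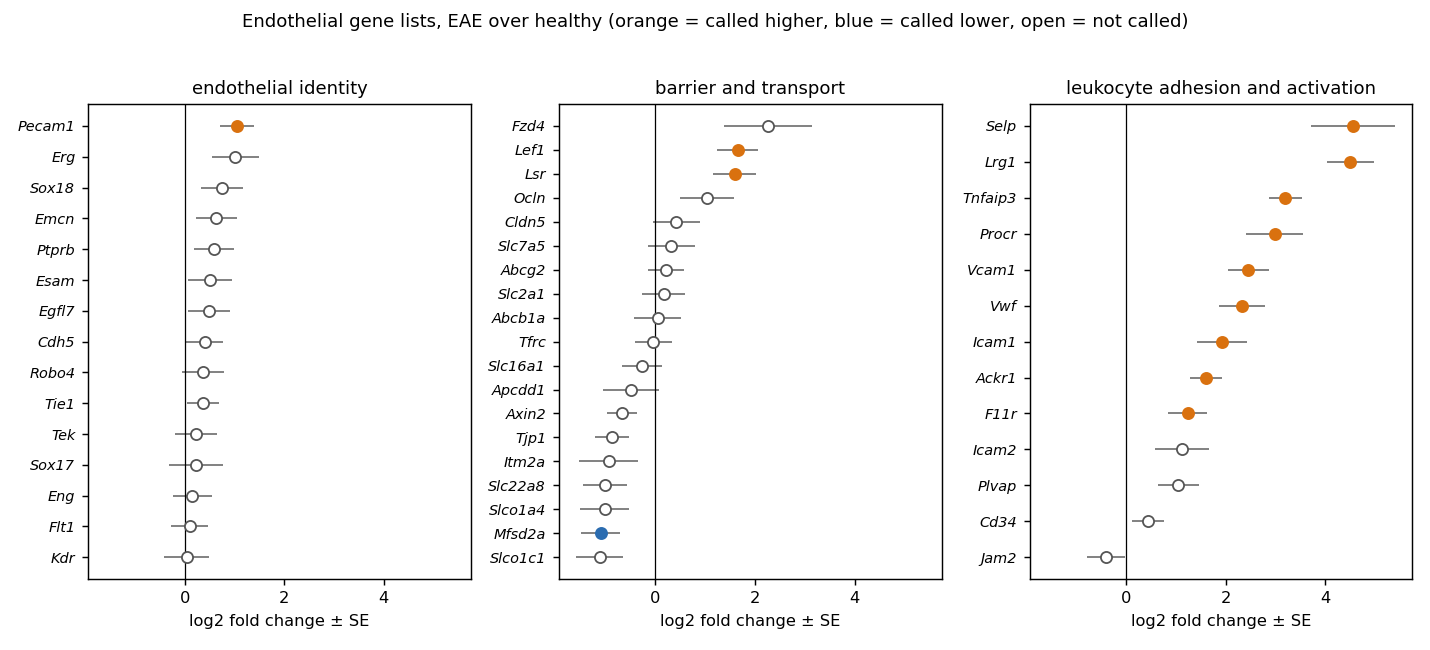
Log2 fold change (EAE over healthy) with its standard error for the tested members of the endothelial identity, barrier and transport, and leukocyte adhesion lists, filled where called and open where not. Filled points are 1 of 15 identity genes, 3 of 19 barrier genes and 9 of 13 adhesion genes, the last all to the right of 0.

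Of 19 barrier genes 2 were called higher and 1 lower (median -0.04), beside 15.1 and 12.6% of all genes. The counts were 1 and 0 without EAE 2 and EAE 4, and 3 and 7 by limma voom. Cldn5 had 479, 75.6, 112, 90.3 and 88.4 CPM in EAE libraries 1 to 5 and 142, 94.1, 157, 118 and 120 CPM in healthy libraries 1 to 5. Cldn5, the main claudin of brain and cord endothelium, was highest in EAE 1, and the other 4 EAE libraries lay below or within the healthy range (0.42 ± 0.47, adjusted p = 0.523). With 1 library left out its log2 fold change ran from -0.52 to 0.64, so its sign was not fixed. Ocln, or occludin, had 1.03 ± 0.54 (adjusted p = 0.158). Lsr, a protein of tricellular junctions, was higher (1.59 ± 0.44, adjusted p = 0.0151, 0.0548 to 0.0575 without EAE 1 or healthy 2) and so was Lef1, a Wnt transcription factor that T cells share (1.65 ± 0.42, adjusted p = 0.00983); without EAE 2 and EAE 4 their adjusted p was 0.0287 and 0.0966. With the mitochondrial covariate 0 were higher and 0 lower, and Lsr and Lef1 had adjusted p of 0.182 and 0.352. Mfsd2a, the lipid transporter that limits transcytosis, was called lower (-1.10 ± 0.39, adjusted p = 0.0473) and lost that call when any of 7 libraries was left out (adjusted p 0.0564 to 0.116 without EAE 2, EAE 3, EAE 4, EAE 5, healthy 1, healthy 2 or healthy 5), without EAE 2 and EAE 4 (adjusted p = 0.201) and with the covariate (adjusted p = 0.979, log2 fold change 0.05). The lower count itself was 4 without EAE 1 or without healthy 3.

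Adhesion and activation genes rose for 9 of 13 and fell for 0 (median 1.92; 10 without EAE 2 and EAE 4, 9 with the mitochondrial covariate). Whether endothelium, leukocytes or other cells gave this rise was not tested. Vcam1 had 83.7, 27.3, 42.4, 30.5 and 41.9 CPM in EAE libraries 1 to 5 and 7.97, 6.74, 4.51, 5.79 and 16.1 CPM in healthy libraries 1 to 5. Vcam1, the ligand of the leukocyte integrin alpha 4 beta 1, was 5.45-fold higher with no overlap (log2 fold change 2.45 ± 0.41, adjusted p = 0.0005). Selp had 9.46, 13, 9.47, 11.9 and 4.43 CPM in EAE libraries 1 to 5 and 0.29, 0.0753, 1.5, 0.34 and 0.0905 CPM in healthy libraries 1 to 5. Selp, or P-selectin, on which leukocytes roll, was near 0 in healthy libraries and did not overlap (4.56 ± 0.84, adjusted p = 0.00107; 5.64 without healthy 3). Lrg1, a glycoprotein of inflamed vessels and of neutrophils, was at 4.50 ± 0.47, Icam1 at 1.92 ± 0.50 and Tnfaip3, a brake on NF-kappa B, at 3.20 ± 0.34. Among the integrin chains that bind these ligands Itga4 rose, at 2.08 ± 0.30, and so did Itgal, at 5.12 ± 0.41. They belong to a list with 11 of 15 higher and 2 lower. Mcam had 62.2, 7.98, 74.6, 8.39 and 61.2 CPM in EAE libraries 1 to 5 and 337, 398, 101, 259 and 263 CPM in healthy libraries 1 to 5. Mcam, a receptor for laminin 411 that vessels and some T cells carry, was 1 of those 2 (-2.65 ± 0.59, adjusted p = 0.00414), and its 2 lowest values were in EAE 2 and EAE 4. With the mitochondrial covariate Mcam was at -1.22 (adjusted p = 0.305). Alcam, the ligand of Cd6, was the other (-1.49 ± 0.26, adjusted p = 0.000733).

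Of 13 angiogenic genes 2 were called higher and 1 lower, counts near the 15.1 and 12.6% of all genes. Vegfa had 43.8, 28.5, 53.3, 20.8 and 54.4 CPM in EAE libraries 1 to 5 and 186, 160, 83.5, 118 and 250 CPM in healthy libraries 1 to 5. Vegfa, the main growth factor of vessels, which astrocytes and oligodendrocytes make, fell with no overlap (-1.98 ± 0.37, adjusted p = 0.00124; 0.118 with the mitochondrial covariate). Angpt2, which loosens the contact of endothelium with pericytes, rose (1.98 ± 0.46, adjusted p = 0.0054, and 0.0539 with the covariate). The median of the list was 0.09, and the counts were 0 and 0 with the covariate and 1 higher without healthy 1 or healthy 2.

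In the wall of the vessels, 6 of 17 pericyte and smooth muscle genes were higher and 0 lower (median 0.54; 6 without EAE 2 and EAE 4, 1 with the mitochondrial covariate). The pericyte genes Pdgfrb (-0.22 ± 0.33, adjusted p = 0.647) and Rgs5 (0.13 ± 0.58, adjusted p = 0.887) did not pass. Rgs5 ran from -0.80 to 0.52 with 1 library left out. Tagln had 171, 82.3, 50, 66.4 and 39.8 CPM in EAE libraries 1 to 5 and 15.2, 21.5, 39.9, 16.1 and 15.6 CPM in healthy libraries 1 to 5. Tagln, an actin-binding protein of smooth muscle, rose (1.92 ± 0.41, adjusted p = 0.00325), with 4 EAE libraries above all healthy ones and EAE 5 just under healthy 3. Anpep, an aminopeptidase of pericytes and myeloid cells, rose by 2.52 ± 0.42, and Mylk, a myosin kinase, by 1.39 ± 0.33. The covariate took the calls of Tagln (adjusted p = 0.104) and Mylk (adjusted p = 0.195).

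Fibroblast and interstitial matrix genes rose for 8 of 17 and fell for 0 (median 1.04; 7 without EAE 2 and EAE 4, 4 with the mitochondrial covariate). Col3a1 had 152, 119, 132, 95.1 and 59.4 CPM in EAE libraries 1 to 5 and 21.5, 16.8, 25.1, 24.5 and 22.3 CPM in healthy libraries 1 to 5. Col3a1, fibrillar collagen III, was 5.05-fold higher with no overlap (log2 fold change 2.34 ± 0.31, adjusted p = 6.08e-05). Dcn, or decorin, a collagen-binding proteoglycan, was at 2.42 ± 0.34, Mgp, or matrix Gla protein, at 2.53 ± 0.36 and Col1a1 at 1.28 ± 0.28. Basement membrane genes gave 1 higher and 1 lower of 13 (median 0.47; 0 and 0 with the covariate). These were Col4a1, a chain of collagen IV (1.05 ± 0.27, adjusted p = 0.0104; 0.0603 to 0.0648 without healthy 2 or healthy 4), and Agrn, or agrin, a proteoglycan of glial and vascular basement membranes (-1.54 ± 0.43, adjusted p = 0.0152; 0.0515 without EAE 4). Neither was called with the covariate (adjusted p = 0.135 and 0.271). Of 18 matrix protease and inhibitor genes 11 were higher and 1 lower (6 and 0 with the covariate), and the rises included Plaur, the urokinase receptor (3.77 ± 0.45).

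**Figure D5:**
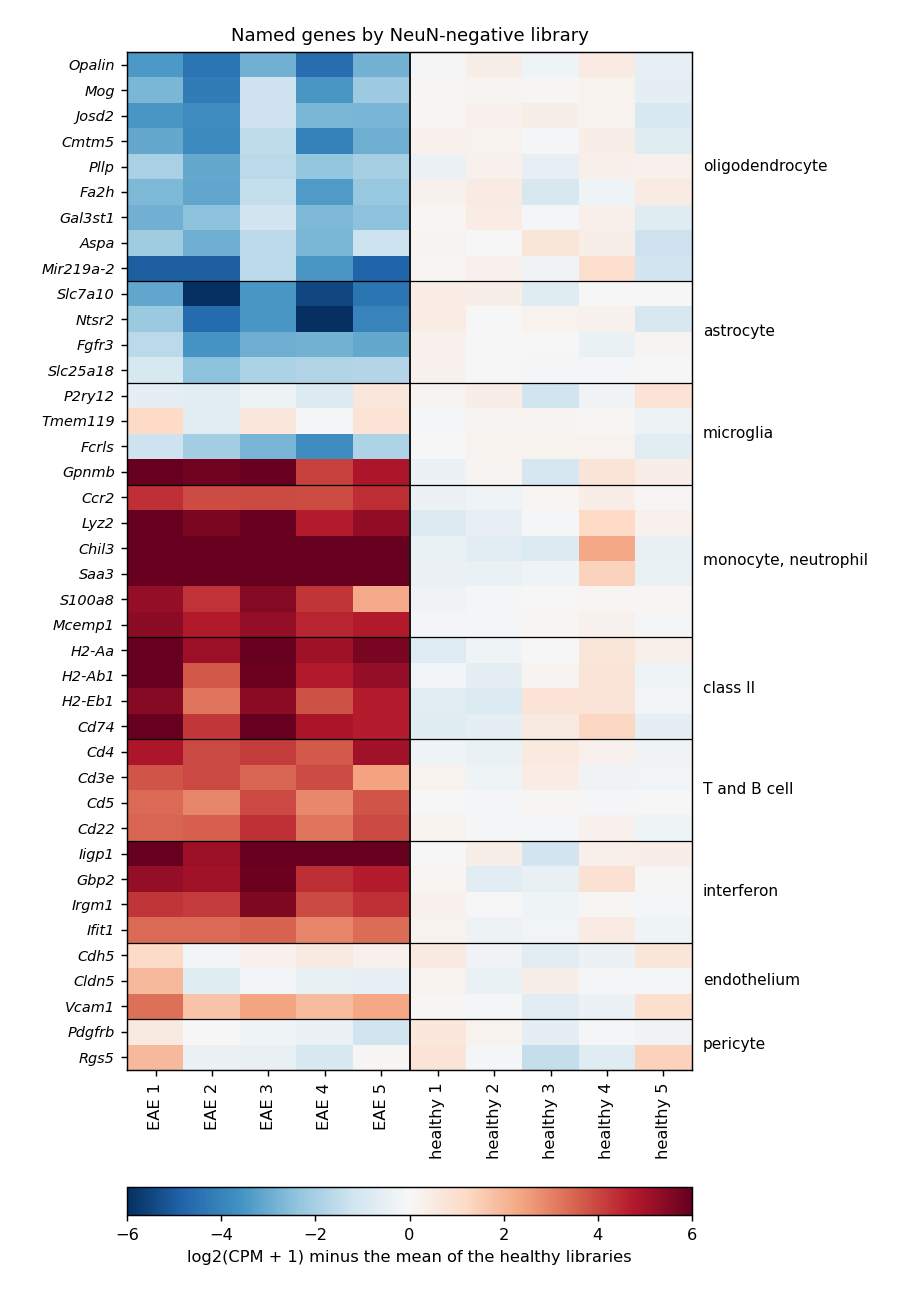
Log2(CPM + 1) of 40 named genes in each NeuN-negative library minus the mean of the 5 healthy libraries, on a scale from -6 (blue) to 6 (red) whose end colours also stand for values beyond it. Oligodendrocyte and astrocyte rows are blue and leukocyte, class II and interferon rows red in all 5 EAE libraries, and apart from Vcam1 the endothelial and pericyte rows are pale. The blue groups were drawn from genes called lower only and the red groups from genes called higher only. Mbp, Mobp, Aqp4, Slc1a2, Gfap, Serpina3n and Vim are therefore not among the rows.

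Counts for markers of other cells that the gate could hold stand beside 15.1% of all genes called higher and 12.6% called lower. Schwann cell genes had 2 of 9 higher and 0 lower (1 higher without EAE 2 and EAE 4, 0 with the covariate), and a median of -0.39. Their share of counts was 0.0875% ± 0.0271 in EAE and 0.122% ± 0.0218 in healthy libraries (SD, n = 5 each; two-sided exact permutation p = 0.0794, or 0.159 when adjusted). Ependymal genes had 2 higher and 1 lower of 11, and the 2 higher ones, Dnah11 (2.81 to 61.7 CPM in EAE) and Hydin (5.4 to 43 CPM), long genes of motile cilia, were highest in EAE 2 and EAE 4. Without those libraries 0 ependymal genes were higher and 2 lower. Hydin alone had an adjusted p of 0.0741 to 0.142 without EAE 2, EAE 4, healthy 1, healthy 2, healthy 4 or healthy 5. Of 4 erythroid genes 0 were called by edgeR (0 at an unadjusted p under 0.05), 0 by DESeq2 and 1 by limma voom, and Hba-a1, 1 of 2 near-identical globin genes, was at 2.21 CPM in EAE and 2.28 CPM in healthy libraries.

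Cell cycle genes rose for 16 of 24 and fell for 0 (median 1.84; 13 without EAE 2 and EAE 4, 10 without EAE 5, 8 without healthy 1, 9 without healthy 2 and 7 with the mitochondrial covariate). Mki67 had 92, 26, 56.4, 32 and 74.2 CPM in EAE libraries 1 to 5 and 2.13, 2.67, 4.1, 2.27 and 3.01 CPM in healthy libraries 1 to 5. Mki67, the proliferation antigen Ki-67, was 20-fold higher with no overlap (log2 fold change 4.32 ± 0.41, adjusted p = 2.74e-06), and E2f1, a factor of S-phase entry, rose by 2.76 ± 0.35. Immediate-early genes rose for 9 of 14 (5 without healthy 1 or healthy 2) and fell for 1, with Atf3, a stress-induced factor, at 3.35 ± 0.39 and Junb at 2.73 ± 0.37. The member that fell was Arc, a gene best known for its response to neuronal activity (-1.88 ± 0.36, adjusted p = 0.00131, and 0.0651 with the covariate). Heat shock genes had 1 higher and 2 lower of 12 (0 and 0 with the covariate). Of 28 counts in the lists above that were 0 by edgeR, the largest was 1 at an unadjusted p under 0.05, 2 by DESeq2 and 4 by limma voom.

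The 10 largest rises under the naming rule were Cxcl13, Saa3, Cd69, Acod1, Cxcl9, F7, Fcrl5, Ly6i, Chil3 and Mcemp1. The order of Cxcl13 and Cd69 depends on the prior count, since healthy libraries held 1 and 2 of their counts. For Cd69, an early activation marker of lymphocytes, the ratio of counts per total was 457 (Clopper-Pearson 95% interval 126 to 3790, adjusted p = 1.44e-05). Acod1, which makes itaconate in activated macrophages, was at 8.29 ± 0.67 and F7, coagulation factor VII, at 7.93 ± 0.59. Acod1 had 145, 33.2, 207, 55.9 and 72.6 CPM in EAE libraries 1 to 5 and 0.145, 0.678, 0.41, 0.34 and 0.113 CPM in healthy libraries 1 to 5. Every healthy value of Acod1 was under 1 CPM, and EAE 2 and EAE 4 were the lowest of the EAE libraries. The 10 largest falls were Slc7a10, Mir219a-2, Ntsr2, Opalin, Gpr15, Adam1a, Itih3, Car14, Cyp27a1 and Serpinb1a. Itih3, a hyaluronan-binding matrix protein, was at -3.22 ± 0.46, Car14, a membrane carbonic anhydrase, at -3.13 ± 0.46 and Cyp27a1, a sterol 27-hydroxylase, at -3.12 ± 0.61. Gpr15, a homing receptor of T cells, was at -3.45 ± 0.55, against the direction of the T cell list. Gpr15 had 0.37, 2.94, 5.45, 2.29 and 1.45 CPM in EAE libraries 1 to 5 and 31.2, 42.1, 15.2, 22.9 and 24.7 CPM in healthy libraries 1 to 5. Its EAE values were all below the healthy ones. Gpr15 overlaps Cpox, a heme synthesis gene on the opposite strand, and reads of the 2 genes cannot be told apart. Serpinb1a, an inhibitor of neutrophil proteases, was at -3.12 ± 0.45, and Adam1a, a gene of sperm, at -3.36 ± 0.59. Without EAE 3 the falls were larger, at -3.75 for Car14, -4.08 for Cyp27a1, -4.21 for Gpr15 and -3.99 for Adam1a. With the mitochondrial covariate falls were smaller, at -1.92 for Car14, -2.19 for Cyp27a1, -2.61 for Gpr15 and -2.25 for Serpinb1a. Without healthy 2 Acod1 was at 8.88. Rises that the covariate moved by over 1.5-fold and left called were Acod1 (9.92), F7 (8.56), Iigp1 (8.30), Cxcr6 (6.63), Ccr1 (5.44), Irgm1 (5.29), Klrk1 (5.25), Pax5 (3.47), Anpep (3.43) and Icam1 (2.95) upward and Icos (4.14), Selp (3.69) and Ms4a7 (2.98) downward.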

How the data were processed

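Nuclei of mouse spinal cord were sorted on NeuN by flow cytometry, RNA was extracted with an RNeasy kit and polyadenylated libraries were made with Illumina TruSeq chemistry, per the labels' protocols. The authors deposited raw counts per gene, whole numbers for 43629 genes in 20 libraries, of which the 10 NeuN-negative ones were used. STAR 2.4 and DESeq2 are named in the submitters' processing notes, which also list the builds GRCm39 and mm10 with no role. How reads were counted, on which annotation and with or without strand, is not given in the sources used here. Gene positions are from GENCODE M21 (GRCm38), and promoter and miRNA sequences from RefSeq (GRCm38.p6).

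Counts were fitted with edgeR 4.0.16 in R 4.3.3 (TMM, filterByExpr by group, robust quasi-likelihood test, Benjamini-Hochberg adjustment over the 17604 genes kept, called at an adjusted p under 0.05). The 10 libraries made up their own fit with no covariate. Means are ± SD over 5 libraries and fold changes ± SE. Library measures were compared by an exact permutation test over 252 splits, whose smallest two-sided p is 0.00794. Of 685 entries in 42 gene lists, 641 were tested, 42 were under the count filter and 2 were not matched to the table. The comparison, the lists and their members were chosen with earlier results of these data known, so a list's count is a description and was given no test. Genes were named by rule: the 4 markers and Rbfox3, the 10 largest rises and falls among genes called whose mean log2 CPM reached 1 and with no overlap between groups, the first 2 members of each list and up to 4 called members in each direction by smallest p. Mbp, Mobp, H2-Oa, H2-Eb2 and Stat2 fall outside it and were added after values were seen. No pair of libraries of a group was identical or within counting noise. Libraries that share a number across groups did not deviate together (correlations of -0.299 to 0.307, 1 of 5 over 0.1), so they were not paired. Alternatives used DESeq2 1.42.0, limma 3.58.1 (voom with quality weights), other scalings and filters, a replicate block, the mitochondrial share as a covariate, all 20 libraries in one fit and leaving libraries out. Some genes are not reported here. The fit was tested on simulated data. Intervals and floors cover counting error only, since the labels name no molecular identifiers.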

Additional observations from a re-analysis of the deposited data

Results flagged for a closer look

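Each group of 5 libraries was checked for a single library that stood apart from the other 4 by more than 0.71 of the group's whole range (Dixon's test; gene values on the log2(CPM + 1) scale). Of 102 group values checked, for library measures and the genes shown by library, 10 stood apart, where chance gives about 1 in 20. Healthy 3 stood apart in the share of its 10 most abundant genes, 15.6% against 7.18 to 9.39% in the other healthy libraries, in Iigp1 at 0.82 CPM against 3.04 to 4.27 CPM, and in Selp at 1.5 CPM against 0.0753 to 0.34 CPM. Healthy 5 stood apart in Mog, 853 CPM against 1320 to 1450 CPM, in Fcrls, 20.4 CPM against 33.3 to 38.5 CPM, and in Cxcl13, 0.0226 CPM from a single count against 0 in the others. Healthy 4 held 7.83 CPM of Chil3 against at most 0.338 CPM in the other healthy libraries, and healthy 1 held 1470 CPM of Gfap against 1000 to 1110 CPM. EAE 1 stood apart in the endothelial genes Pecam1, 106 CPM against 40.7 to 52.6 CPM, and Cldn5, 479 CPM against 75.6 to 112 CPM. The cause of each was not tested.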

How the results depend on the processing

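Of the 2650 genes called higher and 2220 called lower, the counts moved by over 1.5 times under limma voom (4520 and 4552), with a tested minimum change of 2-fold (1132 and 364), with the mitochondrial share as a covariate (1010 and 444), for rises without a count filter (5618 of 37579 genes, where the median log2 fold change of all genes was 0.955) and for falls with all 20 libraries in one fit (3786). Leaving out 1 library gave 1796 to 4011 rises and 1370 to 2806 falls. With the replicate block there were 1877 and 1800, although the shared numbers did not pair the libraries. DESeq2 gave 3638 and 2622, its size factors in edgeR 2691 and 2063, library totals alone 2539 and 1727, and the fit without EAE 2, EAE 4 and healthy 3, chosen after seeing the data, 3197 and 2258. The cause of these moves was not tested. Of 128 genes named and called, 98 kept their call in all 22 alternatives other than the 2-fold minimum, and 14 more lost it only with the mitochondrial covariate. Of the 128 genes, Mfsd2a changed sign with that covariate (log2 fold change 0.05). The difference in mitochondrial share, 6.11 percentage points, was 10.3 with the 10 most abundant genes left out of the denominator and 4.42 to 7.54 with 1 library left out. EAE 2 and EAE 4 have the fewest counts, 3149209 and 4104125, and limit what low genes can show.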
